A study of Mus musculus with 28 samples.

Results

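The regions described here are the 100 kb stretches of the mouse autosomes in which peaks of 5-hydroxymethylcytosine (5hmC) lay most densely in wild-type bone marrow cells. Chromosomes 1 to 19 were cut into 24727 bins of 100 kb, and the percent of each bin under 5hmC peaks was computed for every library. The 997 bins with a mean of 25% or more over the 2 wild-type libraries were taken as the densest bins. The wild-type 5hmC values therefore chose these bins, and those values are given as a description only.

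The study profiled 5hmC and 5-methylcytosine (5mC) in LK cells (the name in the labels) of the bone marrow, from C57BL/6 mice of 6 to 10 weeks. The mice lacked Tet1 and Tet2 (double knockout, DKO), lacked Tet2 (Tet2KO), or were wild type (WT). 5hmC was captured by selective chemical labelling of the modified base (hMe-Seal), with 2 libraries in each of DKO, Tet2KO and WT. 5mC was captured by immunoprecipitation of methylated DNA (MeDIP-seq), with 2 libraries in DKO, 1 in Tet2KO and 2 in WT. The genotypes are called knockouts as labelled, since the deleted parts of both genes were not examined here. The labels do not say that the libraries of a genotype came from separate animals, so all spreads are between libraries and may be technical.

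5mC is the methyl mark that DNA methyltransferases place on cytosine, mostly at CpG sites. TET1, TET2 and TET3 are dioxygenases that oxidise 5mC to 5hmC and further. 5hmC is thus both a product of 5mC and a step towards its removal, and in many tissues it is found along active genes and at enhancers. Tet3 is not among the genes the labels give as deleted. Both assays report enrichment, so a peak shows that signal exceeded what the peak caller required, and gives no share of modified cytosines.

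The 5hmC lists held 130077 and 143960 peaks in DKO, 137013 and 140491 in Tet2KO, and 128471 and 135265 in WT. The 5mC lists ranged from 120243 to 147934 peaks. Read depth is unknown for every library, and depth can change both the number and the width of peaks. Positions are given in build mm9, and genes of that build were not used here, so bins are named by position only.

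The densest bins were 997 of 24727, and held far more than their share of the peaks. Of all autosomal 5hmC peaks, 25.0% and 24.3% lay in them in DKO, 24.3% and 24.5% in Tet2KO, and 25.6% and 25.6% in WT. Of the covered length, they held 30.2% ± 0.768 in DKO, 29.6% ± 0.0734 in Tet2KO and 31.1% ± 0.156 in WT (SD, n = 2 each). For 5mC the same bins held 15.7% ± 0.124 of the covered length in DKO (SD, n = 2), 15.6% in the Tet2KO library and 15.1% ± 0.210 in WT (SD, n = 2).

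The bins were spread unevenly over the chromosomes. On chromosome 11, 109 of 1219 bins (8.94%) were among the densest, on chromosome 17 68 of 953 (7.14%) and on chromosome 15 65 of 1034 (6.29%). At the other end were chromosome 3 with 28 of 1596 bins (1.75%) and chromosome 1 with 41 of 1972 (2.08%). Every autosome held at least 23 of them.

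They also lay side by side. The 997 bins formed 632 runs, of which 423 were single bins, and 574 bins (57.6%) had at least 1 neighbour in the set. The longest runs had 9 bins, on chromosome 4 from 134000001 to 134900000 and on chromosome 17 from 28800001 to 29700000. Over the chromosome 4 run the mean coverage was 40.5% and 36.6% in DKO, 34.3% and 32.5% in Tet2KO, and 41.2% and 39.2% in WT. Over the chromosome 17 run it was 27.3% and 24.6% in DKO, 26.6% and 23.4% in Tet2KO, and 30.2% and 28.1% in WT. Next were 2 runs of 8 bins. The one on chromosome 8 from 124800001 to 125600000, had 47.3% and 44.0% in DKO, 41.7% and 43.8% in Tet2KO, and 48.0% and 46.6% in WT. The one on chromosome 11 from 115800001 to 116600000 had 29.9% and 27.5% in DKO, 24.2% and 26.1% in Tet2KO, and 32.5% and 32.7% in WT. In all 4 runs the Tet2KO mean was the lowest of the 3 genotypes, although the libraries of DKO and Tet2KO overlapped in the chromosome 17 run. The 1179 bins that bordered a dense bin without being one averaged 13.2% in WT, against 2.68% in all remaining bins, so the density tapered off over neighbouring bins.

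The densest bin of all lay on chromosome 8 at 123000001 to 123100000. Peaks covered 84.7% and 82.1% of it in DKO, 78.4% and 79.1% in Tet2KO, and 82.1% and 79.9% in WT. Its left neighbour, at 122900001 to 123000000, had 75.4% and 74.3% in DKO, 63.7% and 67.3% in Tet2KO, and 75.4% and 74.2% in WT. In both bins the Tet2KO libraries lay below the 4 others, and the DKO libraries were at the WT level or above it.

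A pair of neighbouring bins on chromosome 6 came next. The first, at 134000001 to 134100000, had 78.8% and 76.2% in DKO, 77.2% and 70.8% in Tet2KO, and 77.6% and 74.7% in WT. The second, at 134100001 to 134200000, had 69.2% and 63.8% in DKO, 67.1% and 66.3% in Tet2KO, and 68.3% and 68.4% in WT. Here the DKO and Tet2KO libraries overlapped in both bins.

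Chromosome 16 held another such pair. The bin at 92700001 to 92800000 had 76.6% and 72.4% in DKO, 71.0% and 68.7% in Tet2KO, and 75.4% and 75.9% in WT. The bin at 92600001 to 92700000 had 64.0% and 62.2% in DKO, 58.0% and 55.7% in Tet2KO, and 64.7% and 66.0% in WT. Again Tet2KO was lowest without overlap, and the DKO libraries lay around or below WT.

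Of the remaining 4 of the 10 densest bins, chromosome 15 at 58800001 to 58900000 had the widest gap within a genotype. It had 76.0% and 72.6% in DKO, 58.8% and 69.2% in Tet2KO, and 73.6% and 75.8% in WT. On chromosome 10 at 41900001 to 42000000 the Tet2KO libraries were also far apart, at 61.4% and 70.3%, beside 70.1% and 66.9% in DKO and 71.7% and 70.5% in WT. The bins on chromosome 8 at 119800001 to 119900000 and chromosome 11 at 117100001 to 117200000 averaged 67.5% and 62.9% in Tet2KO, against 73.4% and 66.6% in WT. In all 10 bins the Tet2KO mean was below the WT mean, by 1.63 to 10.7 percentage points.

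**Figure D1:**
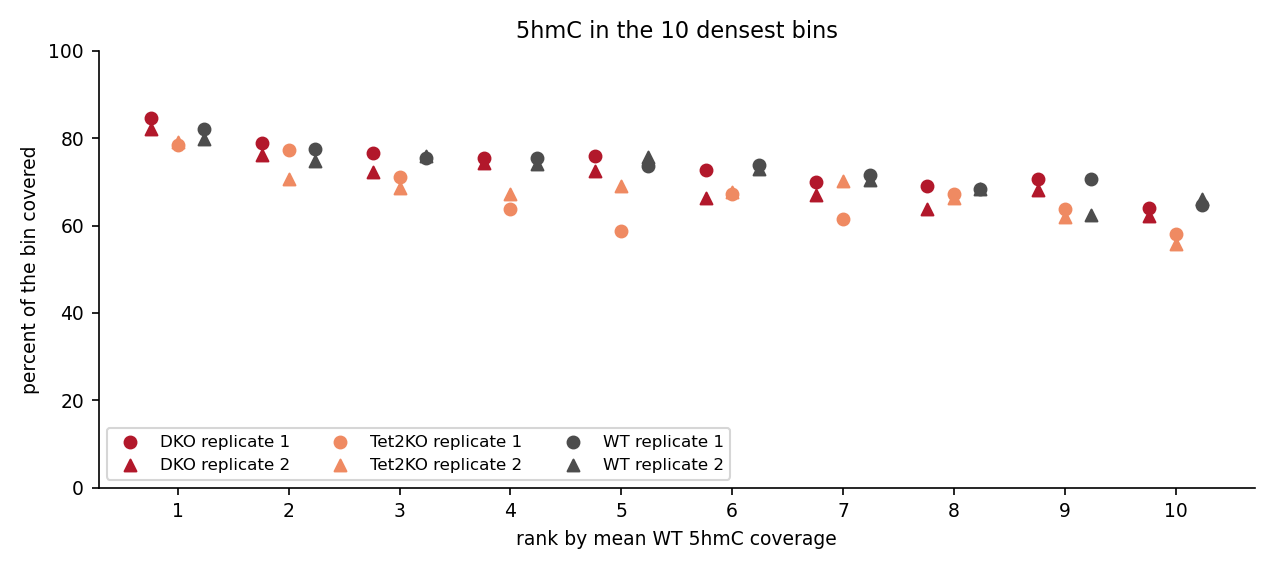
Percent of the bin covered by 5hmC peaks (vertical axis) in the 10 bins of highest mean WT coverage, ranked on the horizontal axis, with a point for each library (circle replicate 1, triangle replicate 2). Tet2KO points lie at or below most others, and the fifth bin shows the widest gap between Tet2KO libraries, 58.8% and 69.2%.

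The lower end of the set is fixed by the 25% minimum. The last bins inside it had WT means of 25% (chromosome 17, 35000001 to 35100000), 25.01% (chromosome 10, 41700001 to 41800000) and 25.01% (chromosome 11, 96700001 to 96800000). The first bins outside it had 24.99% (chromosome 5, 102400001 to 102500000), 24.97% (chromosome 8, 122500001 to 122600000) and 24.97% (chromosome 17, 83700001 to 83800000). Of the 997 bins, 399 had a WT mean under 30%, 395 lay from 30% to under 40%, 144 from 40% to under 50%, and 59 at 50% or more.

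Over the densest bins, coverage was 33.8% and 31.3% in DKO, 30.04% and 29.1% in Tet2KO, and 34.8% and 33.8% in WT. The means were 32.6% ± 1.73 in DKO, 29.6% ± 0.688 in Tet2KO and 34.3% ± 0.717 in WT (SD, n = 2 each). The Tet2KO libraries lay below all others. DKO replicate 1 was just below WT replicate 2, and the DKO libraries lay further apart than those of either other genotype. In the other bins the means were 3.17% ± 0.0527 in DKO, 2.96% ± 0.0588 in Tet2KO and 3.20% ± 0.0453 in WT (SD, n = 2 each).

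The number of peaks per dense bin hardly differed between genotypes, while their width did. A dense bin held on average 33.7 ± 1.73 peaks in DKO, 33.8 ± 0.782 in Tet2KO and 33.8 ± 1.18 in WT (SD, n = 2 each). Median peak width there was 831 and 725 bp in DKO, 731 and 686 bp in Tet2KO, and 861 and 795 bp in WT. Both Tet2KO values were below both WT values, and the DKO libraries spanned most of that range. Outside the densest bins peaks were narrower in each library, with 678 and 601 bp in DKO, 610 and 577 bp in Tet2KO, and 699 and 656 bp in WT. The authors' peak score, used only within a list, had a median of 121 to 129 in the densest bins and of 86.6 to 90.4 elsewhere in the 6 lists.

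**Figure D2:**
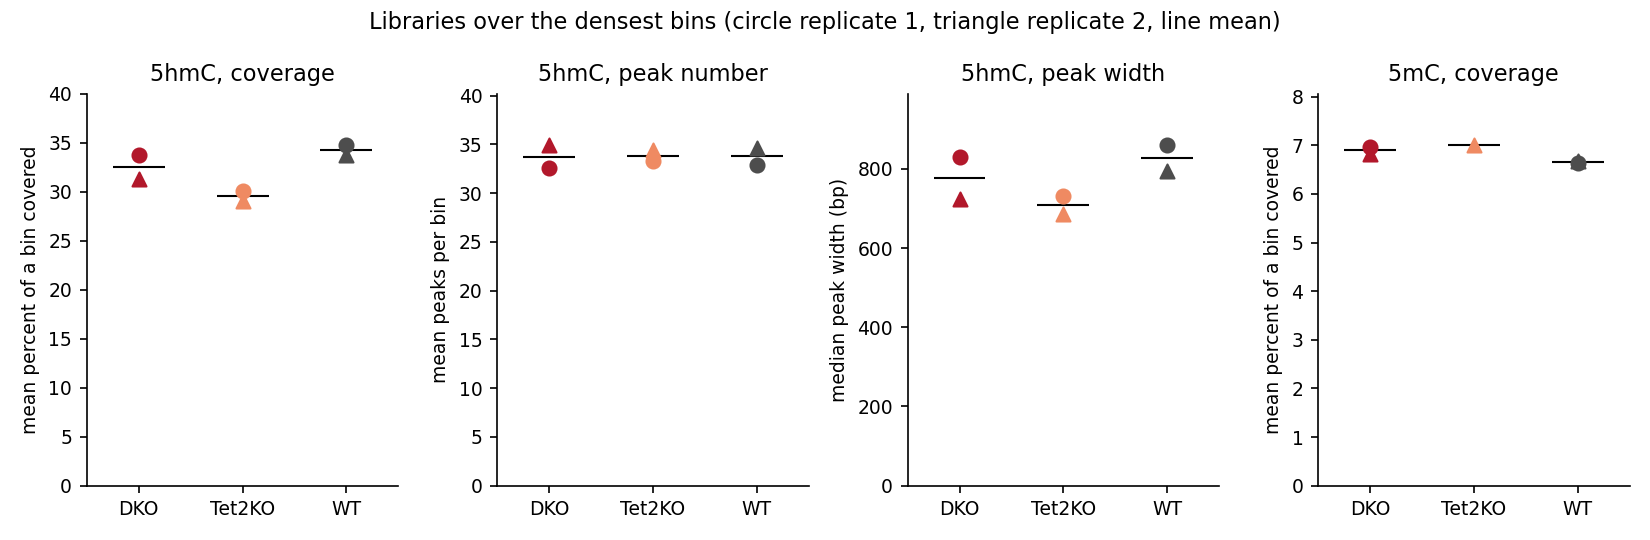
Each point is a library (circle replicate 1, triangle replicate 2) and each line a genotype mean over the 997 densest bins, with mean percent of a bin under 5hmC peaks, mean 5hmC peaks per bin, median 5hmC peak width in bp and mean percent of a bin under 5mC peaks on the vertical axes. 5hmC coverage is 32.6% in DKO, 29.6% in Tet2KO and 34.3% in WT, while the number of peaks is 33.7, 33.8 and 33.8.

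Of the bases of the densest bins, 47.9% lay under a 5hmC peak in at least 1 of the 6 libraries, and 17.9% in all 6. That is 37.4% of the covered bases, against 20.2% in the other tested bins, where tested means that at least 2 of the 6 libraries had a peak. Of the covered bases, 17.0% were covered in a single library, against 29.8% in the other tested bins. The 6 libraries include the WT lists that chose these bins, and higher coverage raises such sharing by position alone. Peaks were also wider in the densest bins, as given above. The parts of the choice, of coverage and of width in this overlap were not tested.

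Of the WT peaks centred in a dense bin, 84.6% were overlapped by at least 1 bp of a DKO peak, 81.3% by a Tet2KO peak and 87.0% by a peak of the other WT library, as means over pairs of libraries. The DKO pairs ranged from 83.5% to 85.7%, the Tet2KO pairs from 80.6% to 82.0% and the WT pairs from 86.2% to 87.7%, so the 3 ranges did not overlap. All pairs use the WT lists that chose the bins, so the ranges are not independent and can partly reflect that choice. Outside the densest bins the shares were 73.6% for DKO, 70.7% for Tet2KO and 74.8% for the other WT library. There the ranges were 71.5% to 75.4%, 69.4% to 71.9% and 73.4% to 76.3%, and that of DKO overlapped both others. Most WT peaks of the densest bins were thus overlapped by peaks of each knockout. Peaks cover more of these bins, which raises such overlap by position alone, and the share expected from coverage was not computed.

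Loss of Tet2 alone was compared with WT first. Because high WT values chose the bins, a difference from WT is a description here, carries no test and can partly reflect that choice. Tet2KO coverage was 4.76 percentage points below WT on average (SD over bins 2.88, median -4.64), which is 13.9% of the WT mean. Over all 13201 tested bins the mean difference was -0.799 points (SD 2.10), or 9.58% below WT. The Tet2KO mean was lower in 947 of the densest bins and higher in 50, beside 58.1% lower and 41.5% higher in all tested bins. In 720 of the densest bins both Tet2KO libraries were below both WT libraries, and in 7 both were above, beside 26.9% and 13.5% of all tested bins. With each library scaled to the same covered length, the mean difference was -1.59 points, and that of DKO minus WT was -0.964 points.

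The same values were read with bins chosen on a single WT list. The 1033 bins at 25% or more in WT replicate 1 averaged 34.6% there and 33.2% in WT replicate 2, which had no part in the choice. Against that second list, Tet2KO was 4.04 points lower, at 29.2%, and DKO 1.08 points lower, at 32.1%. The 966 bins chosen on WT replicate 2 averaged 34.2% there and 34.9% in WT replicate 1, and against replicate 1 Tet2KO was 5.13 points lower and DKO 2.14 points lower. Both WT lists are of the genotype that chose the bins and differ in level, so the effect of the choice is not isolated by this.

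The largest shortfall in Tet2KO was on chromosome 1 at 191600001 to 191700000, with 22.4% and 32.1% in Tet2KO and 42.2% and 41.1% in WT. The Tet2KO libraries lay far apart in this bin, and DKO had 31.6% and 28.8%. Chromosome 5 from 125500001 to 125600000 had 43.1% and 43.3% in Tet2KO and 57.9% and 55.6% in WT, with 55.1% and 48.4% in DKO. Chromosome 6 from 120900001 to 121000000 had 22.1% and 25.3% in Tet2KO and 39.3% and 35.0% in WT, with 29.1% and 27.4% in DKO. In each of the 3 bins the DKO mean lay between the other means.

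A pair of bins on chromosome 4 completed the 5 largest shortfalls. At 141000001 to 141100000 coverage was 41.3% and 38.0% in Tet2KO and 50.6% and 54.2% in WT, and at 43400001 to 43500000 it was 21.6% and 18.4% in Tet2KO and 32.3% and 33.15% in WT. All 5 bins had 5mC coverage of 9.78% or more, above the median of 6.10% for the densest bins.

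The opposite difference was small. The largest was on chromosome 13 at 20200001 to 20300000, with 31.8% and 30.4% in Tet2KO and 28.6% and 26.4% in WT. Next was chromosome 7 at 142700001 to 142800000, with 41.4% and 44.4% in Tet2KO and 39.7% and 39.3% in WT. The other bins among the 5 largest lay 1.58 to 2.02 points above WT, on chromosome 4 at 46400001 to 46500000 and 128300001 to 128400000 and on chromosome 5 at 136900001 to 137000000. Of these 5 bins, 4 had 5mC coverage of 2.04% or less.

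Combined loss of Tet1 and Tet2 was set against WT in the same way. DKO coverage was 1.75 percentage points below WT on average (SD over bins 2.82, median -1.78), or 5.11% of the WT mean, and over all tested bins it was -0.193 points (SD 1.63), or 2.31% below WT. The DKO mean was lower in 737 of the densest bins and higher in 260, beside 50.0% and 49.4% of all tested bins. Both DKO libraries were below both WT libraries in 387 and above them in 87, beside 21.1% and 20.4% of all tested bins. The mean difference was -2.98 points without DKO replicate 1 and -0.532 points without DKO replicate 2, so its size rested on which DKO library was read.

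The lowest DKO value relative to WT was on chromosome 15 at 96400001 to 96500000, with 20.8% and 22.3% in DKO and 34.1% and 32.5% in WT. Tet2KO had 21.3% and 22.4% there, so that the knockouts overlapped each other and lay apart from WT. On chromosome 14 at 119000001 to 119100000 coverage was 39.9% and 34.6% in DKO and 48.1% and 47.6% in WT. On chromosome 17 at 27200001 to 27300000 it was 41.5% and 36.0% in DKO and 49.1% and 48.6% in WT. Chromosome 13 at 52900001 to 53000000 had 29.3% and 29.7% in DKO and 38.6% and 39.2% in WT, and the chromosome 1 bin above completed the 5.

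The highest DKO value relative to WT was on chromosome 8 at 13600001 to 13700000, with 65.4% and 62.5% in DKO and 57.9% and 56.4% in WT. Tet2KO had 57.2% and 48.7% in that bin. Chromosome 4 at 132500001 to 132600000 had 41.5% and 39.6% in DKO and 32.1% and 36.1% in WT. Chromosome 15 at 73500001 to 73600000 had 44.2% and 41.6% in DKO and 37.6% and 35.9% in WT. The other 2 of the 5 lay on chromosome 11, at 88300001 to 88400000 and 108100001 to 108200000. The 5 bins had 5mC coverage of 3.20% to 7.32%.

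Counting both knockouts together, 348 of the densest bins had all 4 knockout libraries below both WT libraries and 5 had all 4 above, against 12.3% and 6.67% of all tested bins. Both contrasts use the same WT libraries, so that these counts are not independent of each other or of the choice of bins.

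Many dense bins passed the 25% minimum in the knockouts as well. With the same rule, 890 bins were dense in DKO, of which 842 were among the 997, or 94.6% of the DKO list and 84.5% of the WT list. In Tet2KO 651 bins were dense, of which 641 were among the 997, or 98.5% of the Tet2KO list and 64.3% of the WT list. The 155 bins dense in WT and not in DKO had a median of 23.4% in DKO, and the 356 bins dense in WT and not in Tet2KO a median of 22.7% in Tet2KO. Of the 10 bins dense in Tet2KO and not in WT, 1 stood apart, on chromosome 2 at 77700001 to 77800000. It had 0.581% and 49.7% in Tet2KO, against 0.328% and 0.672% in WT, so that a single library made it dense. That bin is not among the 997.

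**Figure D3:**
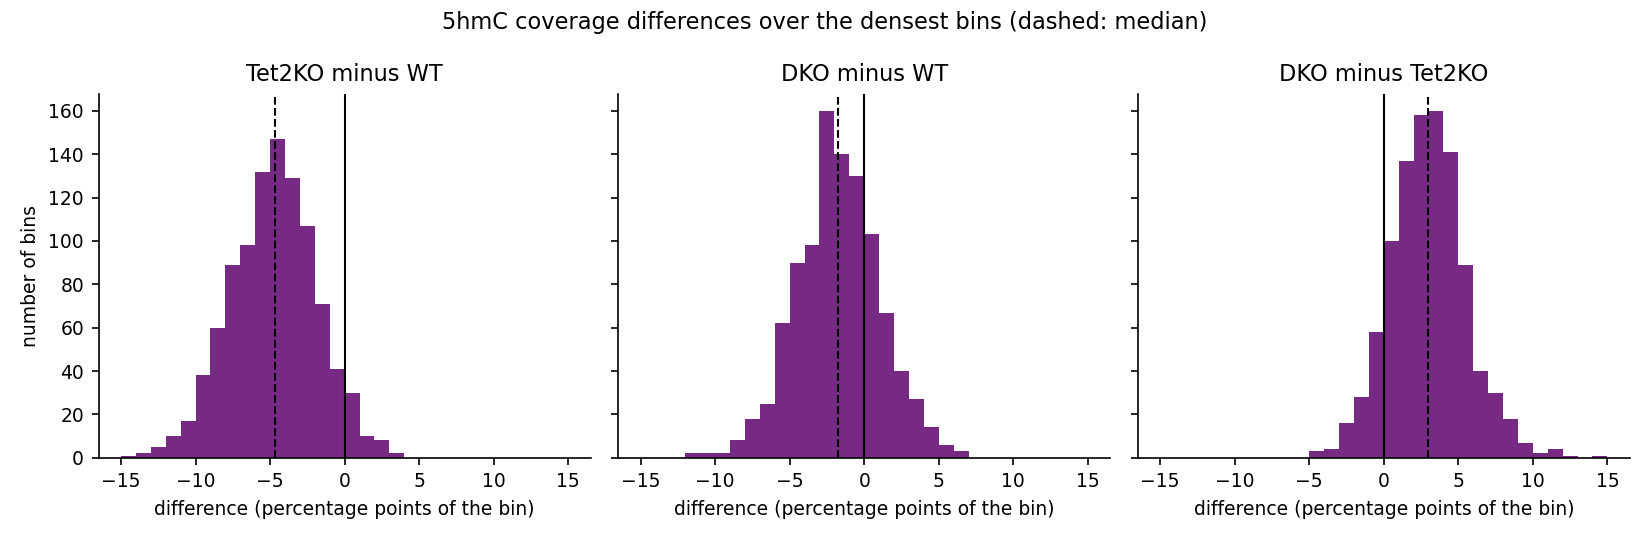
Number of the 997 densest bins (vertical axis) by the difference of mean 5hmC coverage in percentage points (horizontal axis, classes of 1 point), with a dashed line at the median. Medians are -4.64 for Tet2KO minus WT, -1.78 for DKO minus WT and 2.98 for DKO minus Tet2KO.

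The loss of Tet1 on top of Tet2 is read from DKO against Tet2KO, a contrast whose difference WT does not enter. The WT libraries that chose the bins share in the estimate of the spread, and with only DKO and Tet2KO in the fit 102 of the densest bins had an unadjusted p under 0.05, against 148 with all 3 genotypes. DKO coverage was 3.01 percentage points above Tet2KO on average (SD over bins 2.53, median 2.98), or 10.2% of the Tet2KO mean. Over all tested bins the mean difference was 0.606 points (SD 1.71, median 0.224), or 8.04%. The DKO mean was higher in 888 of the densest bins, beside 59.8% of all tested bins, and lower in 109. In 467 of the densest bins both DKO libraries were above both Tet2KO libraries and in 15 both were below, beside 24.7% and 11.1% of all tested bins.

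No single bin passed. In limma with Benjamini-Hochberg adjustment over all 13201 tested bins, 0 of the 997 densest bins had an adjusted p under 0.05, as had 0.0% of all tested bins. The smallest adjusted p among the densest bins was 0.531. An unadjusted p under 0.05 was reached by 147 with higher and 1 with lower coverage in DKO, beside 6.29% and 2.21% of all tested bins. With each library scaled to the same covered length, 598 of the densest bins were higher in DKO, the mean difference was 0.629 points and 60 bins had an unadjusted p under 0.05. That is 6.02% of the densest bins, beside 6.83% of all tested bins, so that the share was no longer above the background. Without DKO replicate 1 it was 47 bins, or 4.71%, beside 4.02% of all tested bins.

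The smallest p values belonged to bins that were denser in DKO. Chromosome 17 at 31900001 to 32000000 had 46.5% and 44.6% in DKO and 33.6% and 27.7% in Tet2KO (limma, unadjusted p = 0.00067, adjusted p = 0.531). The WT libraries had 42.5% and 41.1% there. Chromosome 10 at 74400001 to 74500000 had 31.2% and 29.4% in DKO and 20.1% and 21.2% in Tet2KO, with 27.1% and 28.9% in WT. Chromosome 11 held the next bins. At 88300001 to 88400000 coverage was 43.2% and 44.4% in DKO and 33.0% and 34.8% in Tet2KO, with 37.8% and 38.0% in WT. At 108100001 to 108200000 it was 40.3% and 41.7% in DKO and 31.2% and 26.7% in Tet2KO, with 37.3% and 33.0% in WT. The chromosome 4 bin at 43400001 to 43500000 had 29.6% and 28.2% in DKO and 21.6% and 18.4% in Tet2KO. In 4 of these 5 bins the DKO mean was above the WT mean as well, the chromosome 4 bin being the exception.

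Among the 109 bins with the opposite sign, the lowest difference was -4.25 points, and the 5 with the smallest p were 2.61 to 4.16 points lower in DKO. The largest difference of those 5 was on chromosome 16 at 91600001 to 91700000, with 21.1% and 20.3% in DKO and 25.6% and 24.2% in Tet2KO (limma, unadjusted p = 0.0429, adjusted p = 0.575). The others lay on chromosome 10 at 94700001 to 94800000 and 20900001 to 21000000, chromosome 9 (34900001 to 35000000) and chromosome 2 (59900001 to 60000000), and each had an unadjusted p above 0.1.

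The sign of the mean difference was the same on all 19 autosomes for each contrast. The autosomes were read from the same libraries, so they do not repeat the result independently, and high WT values chose the bins. Mean coverage over all bins had the same order, with 4.35% in DKO, 4.03% in Tet2KO and 4.45% in WT. Tet2KO minus WT ranged from -5.73 points on chromosome 4 to -3.90 on chromosome 12, DKO minus WT from -2.60 on chromosome 16 to -1.03 on chromosome 8, and DKO minus Tet2KO from 1.66 on chromosome 3 to 3.75 on chromosome 4. By WT density, Tet2KO was at 85.8% of WT in bins under 30%, at 85.2% from 30% to 40%, at 87.0% from 40% to 50% and at 89.3% at 50% or more. DKO was at 95.0%, 94.2%, 94.7% and 97.5% of WT in the same classes. In points, Tet2KO minus WT was -3.88, -5.07, -5.74 and -6.28 over these classes, and DKO minus WT was -1.36, -1.99, -2.32 and -1.46. The classes are cut on the WT values that enter both measures.

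Over the densest bins the median absolute difference between replicates was 2.53 points in DKO, 2.93 points in Tet2KO and 1.89 points in WT. Replicate 1 was above replicate 2 in 821 of the 997 bins in DKO, in 575 in Tet2KO and in 632 in WT. The gap thus ran the same way in most bins of each genotype, and most often in DKO.

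The densest 5hmC bins were also rich in 5mC, which had no part in their choice. Mean 5mC coverage was 6.97% and 6.82% in DKO, 7.01% in the Tet2KO library, and 6.63% and 6.67% in WT. Over all bins it was 1.80% and 1.74% in DKO, 1.81% in the Tet2KO library, and 1.79% and 1.76% in WT. The 1179 bins bordering a dense bin averaged 4.68% over the 5mC lists, and bins neither dense nor bordering averaged 1.41%. Higher 5mC was thus not confined to the densest bins. Of the 997 bins, 993 lay above the median 5mC coverage of all bins (0.748%), and the median dense bin stood at percentile 93.6 of all bins. All had a 5mC peak in at least 1 list, and 995 in all 5. A dense bin held on average 18.9 ± 2.61 5mC peaks in DKO (SD, n = 2), 19.3 in the Tet2KO library and 18.2 ± 1.64 in WT (SD, n = 2).

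The bins with most 5mC lay on chromosome 12 (112500001 to 112600000), chromosome 15 (76000001 to 76100000) and chromosome 11 (117900001 to 118000000). The first had 5mC coverage of 23.1% and 22.4% in DKO, 22.8% in the Tet2KO library, and 23.2% and 22.7% in WT. Its 5hmC coverage was 28.8% and 29.1% in DKO, 23.4% and 23.1% in Tet2KO, and 30.6% and 30.6% in WT. The second had 5mC of 22.4% and 23.0% in DKO and 21.0% and 21.6% in WT, and the third 21.3% and 22.9% in DKO and 20.4% and 22.2% in WT.

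A few dense bins had almost no 5mC. Chromosome 3 at 60300001 to 60400000 had 0.293% and 0% in DKO, 0.584% in the Tet2KO library, and 0% in both WT libraries. Its 5hmC coverage was 32.5% and 28.5% in DKO, 39.2% and 30.4% in Tet2KO, and 31.3% and 36.1% in WT. The others of the 3 lowest lay on chromosome 5 (136900001 to 137000000) and chromosome 13 (20200001 to 20300000), at mean 5mC coverage of 0.446% and 0.467%. Those 2 bins are also among the 5 with the largest excess of 5hmC in Tet2KO over WT.

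Across the 997 bins, 5mC and WT 5hmC coverage were weakly related (Spearman's rho = 0.183, n = 997 bins), as a description over bins that share libraries. Over all 13201 tested bins rho was 0.631, and the minimum of 25% narrows the range of 5hmC among the densest bins.

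The overlap of the marks was also read base by base. In WT, bases under a 5hmC peak in both libraries made up 28.1% of the densest bins, and they held 55.5% of the bases under a 5mC peak in both libraries, a ratio of 1.98. In DKO the shares were 26.7% and 47.4%, a ratio of 1.78. In the other tested bins 5hmC covered far less, and the ratios were 3.97 in DKO and 4.63 in WT. Of the same 5mC bases, 74.7% in DKO and 73.0% in WT lay under a 5hmC peak of at least 1 of the 6 libraries. That pooled 5hmC set, 47.9% of the densest bins, is the same for both genotypes. These 2 shares therefore differ only through the 5mC bases and do not compare the 5hmC of DKO and WT. Each share is 1 value a genotype with no replicate spread.

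To see where in the densest bins the genotypes differed, their bases were divided by 5mC alone. Bases under a 5mC peak in all 5 lists made up 3.39% of the densest bins, and bases under none 88.4%. Of the bases with 5mC in all lists, 56.1% and 53.8% lay under a 5hmC peak in DKO, 52.2% and 50.1% in Tet2KO, and 65.9% and 64.3% in WT. Of the bases without 5mC, 31.5% and 29.1% did in DKO, 27.8% and 26.9% in Tet2KO, and 31.6% and 30.7% in WT. At bases with 5mC both knockouts were apart from WT, while at bases without it DKO overlapped WT.

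Relative to WT, the shortfall at bases with 5mC was 15.7% in DKO and 21.5% in Tet2KO, and at bases without 5mC 2.82% in DKO and 12.3% in Tet2KO. In points these were -10.2 and -14.0 with 5mC and -0.878 and -3.82 without. In the other tested bins, bases with 5mC had 22.3% ± 0.113 in DKO, 20.6% ± 0.345 in Tet2KO and 27.9% ± 0.727 in WT (SD, n = 2 each). Bases without it had 5.54% ± 0.103, 5.18% ± 0.103 and 5.42% ± 0.0618 (SD, n = 2 each). Relative to WT, DKO was 20.2% lower there with 5mC and 2.21% higher without it. Tet2KO was 26.3% lower with 5mC and 4.45% lower without it. A larger shortfall at bases with 5mC is therefore not particular to the densest bins. At bases without 5mC, the DKO mean was below WT in the densest bins, where the libraries of DKO and WT overlapped. In the other tested bins the DKO mean was above WT. High WT values chose the densest bins, so this difference in sign can partly reflect that choice. No test was made of this division, since WT values enter and the bins were chosen on them.

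**Figure D4:**
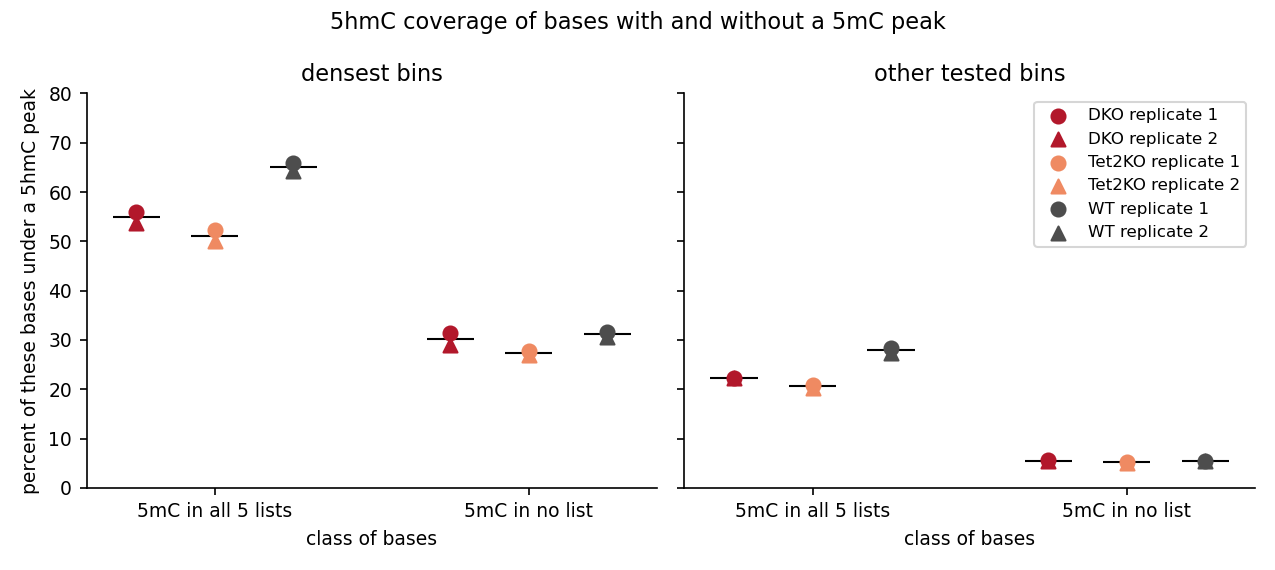
Percent of bases under a 5hmC peak (vertical axis) for bases with a 5mC peak in all 5 lists and bases with none, in the 997 densest bins (left) and the other tested bins (right), with a point for each library and a line at each genotype mean. In the densest bins the values at bases with 5mC are 54.9% in DKO, 51.2% in Tet2KO and 65.1% in WT, and without 5mC 30.3%, 27.3% and 31.1%.

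The densest bins were divided into 4 classes of near equal size by their 5mC coverage, with a mean of 2.80% in the lowest class and 12.05% in the highest. Tet2KO minus WT was -3.08, -4.36, -5.11 and -6.49 points from the lowest to the highest class, and DKO minus WT -0.660, -1.40, -1.88 and -3.08 points. Both Tet2KO libraries were below both WT libraries in 131 of 250 bins (52.4%) of the lowest class and in 225 of 249 (90.4%) of the highest. For DKO these were 64 (25.6%) and 139 (55.8%). Over all tested bins, not divided by 5mC, the shares were 26.9% for Tet2KO and 21.1% for DKO. High WT values chose the densest bins, so these counts can partly reflect that choice. WT coverage itself was 32.6% in the lowest and 36.9% in the highest class. DKO minus Tet2KO was 2.42 points in the lowest and 3.41 in the highest class. Spearman's rho of 5mC coverage with Tet2KO minus WT was -0.433 over the 997 densest bins and -0.484 over all 13201 tested bins. With DKO minus WT it was -0.320 and -0.210. Neither relation is thus particular to the densest bins.

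**Figure D5:**
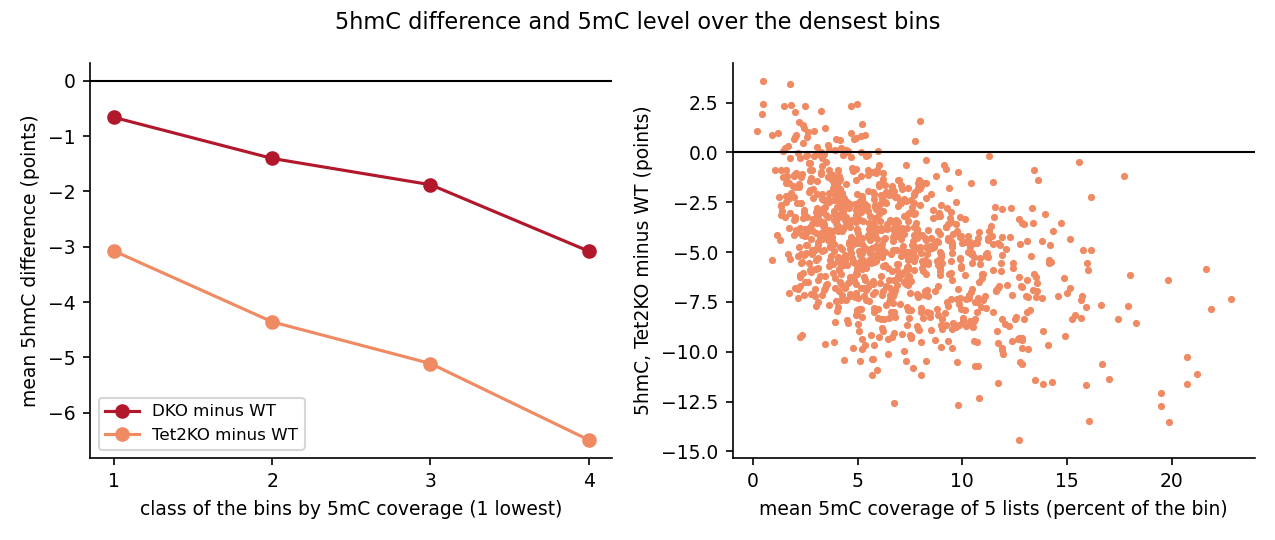
Left, mean 5hmC difference in percentage points (vertical axis) over 4 classes of the 997 densest bins ordered by 5mC coverage (horizontal axis). Right, Tet2KO minus WT for each bin (vertical axis, points) against its mean 5mC coverage over 5 lists (horizontal axis, percent), with Spearman's rho of -0.433 over bins.

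Finally, 5mC itself was compared between DKO and WT in the densest bins. Coverage was 6.90% ± 0.105 in DKO and 6.65% ± 0.0342 in WT (SD, n = 2 each), a mean difference of 0.247 points (SD over bins 0.688), and both DKO libraries were above both WT libraries. Over all 19705 bins tested for 5mC the mean difference was -0.000893 points. The DKO mean was higher in 634 of the densest bins and lower in 363, beside 48.0% and 51.9% of all tested bins. Both DKO libraries were above both WT libraries in 266 and below them in 89, beside 14.7% and 16.4% of all tested bins.

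No bin passed for 5mC either. In limma, 0 of the 997 bins had an adjusted p under 0.05, as had 0.0% of all tested bins, and the smallest adjusted p was 0.949. An unadjusted p under 0.05 was reached by 45 bins with more and 7 bins with less 5mC in DKO, beside 1.99% and 2.54% of all tested bins. In a single bin, the median difference between replicates was 0.633 points in DKO and 0.625 points in WT.

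The 5 densest bins with the smallest 5mC p all had more 5mC in DKO. Chromosome 10 at 92600001 to 92700000 had 2.37% and 2.43% in DKO and 1.12% and 1.17% in WT (limma, unadjusted p = 0.00298, adjusted p = 0.949). The second densest 5hmC bin, chromosome 6 at 134000001 to 134100000, had 5.43% and 4.38% in DKO and 2.76% and 2.92% in WT. Chromosome 1 at 38600001 to 38700000 had 5.74% and 6.26% in DKO and 4.20% and 3.46% in WT. The others were chromosome 12 at 114100001 to 114200000, with 16.6% and 16.6% in DKO and 14.7% and 14.3% in WT, and chromosome 11 at 86700001 to 86800000, with 3.26% and 2.98% in DKO and 1.58% and 2.02% in WT. In the single Tet2KO library, mean 5mC coverage of the densest bins was 0.363 points above WT, a value with no replicate.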

How the data were processed

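The 11 peak lists used, 6 of 5hmC and 5 of 5mC, were deposited by the authors with a start, end, name and score for each peak, 1 list per library. Every deposited score was at least 50. Build mm9, Bowtie 0.12.9, MACS 1.4.2 and CASAVA 1.4 are named per the submitters' processing notes, which give no role or setting, and read depth is unknown. The 17 RNA-seq samples among the 28 of the series were not used here. The title of the 5mC Tet2KO library gives replicate 2, which was followed, although its list carries another number.

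Chromosomes 1 to 19 were cut from position 0 into 100 kb bins up to the last peak end in any list, and bins are given 1-based. The members and lists were chosen with earlier results of these data known. Each base was counted once in a covered percent, and a peak was placed in a bin by its centre. Tested bins had peaks in 2 or more libraries of an assay, and the test was made with limma 3.58.1 (R 4.3.3), with a trend, on the arcsine of the square root of the covered fraction, over all libraries of the assay, with Benjamini-Hochberg adjustment and a threshold of 0.05. The procedure was tested on simulated data, with 200 changed bins and a spread taken over all libraries of the assay. At a change of 0.1 on the arcsine scale, 16 of the 200 were recovered for 5hmC, DKO against Tet2KO, and 163 for 5mC. At 0.2 these were 172 and 163. The median 5hmC difference of the densest bins, DKO minus Tet2KO, was 0.0332 on that scale, so most differences of this size would be missed.

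Bins named are the 10 with most WT 5hmC, the 5 at each end of each difference from WT among bins whose libraries do not overlap, the 5 of smallest p in each direction (5mC, 5 in all), the 3 at each end of 5mC, the 3 on each side of the minimum and the 3 longest runs, with 1 more that ties with the last. The bin on chromosome 2 was named after its values were seen. Alternatives were stricter scores, equal numbers of top peaks, other filters and scales, other minimums, shifted bins, a replicate block and leaving out each library. Scaling to equal covered length was added after seeing the data.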

Additional observations from a re-analysis of the deposited data

How the results depend on the processing

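Peak lists hold no depth, so differences in peak width between libraries cannot be told apart from differences in sequencing. In every alternative run, 0 of the densest bins passed the adjusted threshold in either test. Calls over all bins for 5hmC, DKO minus Tet2KO, were 0, and became 3 with a filter on mean coverage, 102 with no filter and 0 to 1 when a library was left out. For 5mC, DKO minus WT, they were 123 with no filter and 0 when a library was left out. The cause was not tested.

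The 148 densest bins at an unadjusted p under 0.05 for 5hmC became 60 with libraries scaled to equal covered length and 47 to 207 when a library was left out. These are 6.02% when scaled, beside 6.83% of all tested bins, and 4.71% to 20.8% with a library left out, beside 4.02% to 13.1%. The bins higher in DKO than Tet2KO, 888, became 598 when scaled and 729 to 938 when a library was left out. The 52 bins for 5mC became 21 with equal numbers of top peaks, 34 with the replicate block and 25 to 34 when a library was left out. These are 2.11%, 3.41% and 2.51% to 3.41% of the densest bins tested, beside 3.84%, 3.49% and 4.83% to 7.04% of all tested bins, so the share was below the background in each. The replicate block gave 166 bins for 5hmC, or 16.6%, beside 8.09% of all tested bins. Deviations of same-numbered libraries correlated at -0.0573 to 0.0417 over bins, a measure that cannot show a shift shared by all bins. In 5hmC, replicate 1 averaged 2.44 points above replicate 2 over the densest bins in DKO, 0.972 in Tet2KO and 1.01 in WT. In 5mC this difference was 0.149 points in DKO and -0.0483 in WT. Whether replicate numbers pair the libraries is therefore not settled.

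Scaling put Tet2KO minus WT at -1.59 points, DKO minus WT at -0.964 points and DKO minus Tet2KO at 0.629 points. Leaving out a library gave -5.27 to -4.25 for Tet2KO minus WT, 1.78 to 4.23 for DKO minus Tet2KO and -2.98 to -0.532 for DKO minus WT. The set held 1627 bins at a minimum of 20%, 598 at 30% and 398 with scores of at least 100. The 5mC difference of the Tet2KO library from WT was 0.292 and 0.413 points at these minimums, 0.574 with scores of at least 100, 0.252 with equal numbers of top peaks and 0.214 when scaled. WT peaks met by at least 50% of their length were 81.4% for DKO and 76.5% for Tet2KO, and with scores of at least 100 Tet2KO met 80.02%.

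Of 193 alternative values for 15 named bins, 6 changed sign, on the arcsine scale. For 5hmC, DKO minus Tet2KO, these were 0.00779 on chromosome 10 at 94700001 and 0.00967 on chromosome 2 at 59900001 with scores of at least 200, and 0.0126 on chromosome 9 at 34900001 with scores of at least 100. For 5mC, DKO minus WT, these were -0.0173 on chromosome 10 at 92600001 and -0.00186 on chromosome 11 at 86700001 with scores of at least 100, and -0.00634 on chromosome 6 at 134000001 with scores of at least 200.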

Other observations

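In 638 of the 997 densest bins the mean 5hmC coverage was ordered Tet2KO below DKO below WT, and in 220 Tet2KO was below WT with DKO at or above it. These orders were found in 64.0% and 22.1% of the densest bins, beside 24.8% and 18.7% of all tested bins. High WT values chose the densest bins, so orders with a knockout below WT can partly reflect that choice. Both Tet2KO libraries were below all DKO and WT libraries in 401 bins (40.2%), beside 13.5% of all tested bins. Both DKO libraries were above all others in 72 bins (7.22%) and below all others in 12 (1.20%), beside 9.10% and 4.26% of all tested bins.

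The bin on chromosome 2 at 77700001 to 77800000, dense in 1 Tet2KO 5hmC library, also had 38.6% 5mC coverage in the Tet2KO library, against 2.71% and 2.22% in DKO and 2.08% and 2.08% in WT.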
